A study of Homo sapiens with 12 samples.

Results

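The 10 genes described here encode subunits of the Polycomb complexes. They were taken by symbol from 56266 gene rows: EZH1, EZH2, SUZ12, EED and JARID2 of Polycomb repressive complex 2 (PRC2), and BMI1, RING1, RNF2, CBX2 and CBX7 of Polycomb repressive complex 1 (PRC1). All 10 were found, each with 1 row, and all 10 passed the filter on low values. RNA-Seq was analysed in 10 libraries from H1, a human embryonic stem cell (hESC) line, and from a GATA2-/- derivative of it. There were 2 libraries each of GATA2-/- hESCs, WT hemogenic endothelial cells (HEs), GATA2-/- HEs, WT hematopoietic progenitor cells (HPCs) and GATA2-/- HPCs. HEs are endothelial cells able to give rise to blood, sorted as CD34+CD31+CD43- at day 8 of co-culture with OP9 mouse stromal cells, and HPCs were sorted as CD34+CD43+ at day 9. The 2 WT hESC samples were not analysed here, so each comparison with hESCs was made within the GATA2-/- genotype. The GATA2-/- line was 1 clone, made with TALENs that placed a neomycin resistance cassette in both GATA2 alleles, so the clone and the genotype cannot be told apart. Nothing in the labels says whether replicates came from separate cultures, so p-values measure only the spread between these libraries, which may be technical.

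Polycomb complexes keep developmental genes silent. PRC2 methylates histone H3 on lysine 27 (H3K27me3) through its catalytic subunit, EZH2 or EZH1, which works only together with SUZ12 and EED. JARID2 is an accessory subunit that helps bring PRC2 to its targets, above all in pluripotent cells. PRC1 ubiquitylates histone H2A through RNF2 (RING1B) or RING1, each paired with 1 PCGF protein such as BMI1 (PCGF4). In canonical PRC1 a CBX protein reads H3K27me3 and a PHC protein lets complexes cluster, while variant PRC1 carries RYBP or YAF2 instead. Blood stem cells depend on BMI1 for self-renewal, and CBX proteins are exchanged as stem cells differentiate.

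The deposited values are TPM, a length-scaled share of the transcripts in a library that lets genes be compared within it. TPM does not hold the number of reads, which is therefore unknown for every library. Between 16004 and 17335 genes reached a TPM of 1 in each library. Each of 3 marker sums was highest in the stage it is named for. The summed TPM of 8 hESC markers was 5304.53 to 6148.56 in hESCs and at most 335.02 elsewhere. That of 11 endothelial markers was 3541.94 to 4520.27 in HEs, 689.49 to 1066.03 in HPCs and 72.07 to 89.96 in hESCs. That of 12 blood markers was 3821.05 to 7518 in HPCs, 124.83 to 398.93 in HEs and 14.41 to 22.24 in hESCs. The globin gene HBE1 alone read 1495.82 to 4487.33 TPM in HPCs. These lists include CD34 and SPN (CD43), on which the cells were sorted. PTPRC (CD45), a marker of most blood cells, was between 0.68 and 3.09 TPM in HPCs. These low values overlapped its 0.56 and 3.06 TPM in hESCs, and the 4 HE libraries list it at 0. GATA2 itself read 78.03 to 110.93 TPM in the 4 HE libraries, 204.17 to 290.08 in WT HPCs and 83.82 to 112.47 in GATA2-/- HPCs. The study states that an aberrant GATA2 mRNA may be made, so these gene-level values do not check the labels. In such bulk libraries fewer cells of a type and less RNA per cell cannot be told apart.

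The Polycomb genes differed in how far they moved between stages. The core enzyme EZH2 stayed within a narrow range, and EZH2, RNF2 and EED passed no test. JARID2 and CBX2 changed strongly at 1 or more steps, and SUZ12 changed moderately. EZH1 and RING1 also changed moderately, but their calls were fragile. That of EZH1 passed in only 2 of 7 other settings of the fit, and the RING1 rise from HEs to HPCs in 6 of 7. CBX7 and BMI1 also changed strongly against hESCs, but those calls did not pass without hESC replicate 2. At an adjusted p under 0.05 (Benjamini-Hochberg, over all tested genes), 4 of the 10 genes passed the limma test between GATA2-/- hESCs and GATA2-/- HEs, where 30% of 21543 tested genes did. Of these, EZH1 and BMI1 rose (13.9% of tested genes) and JARID2 and CBX7 fell (16.1%). Between GATA2-/- hESCs and GATA2-/- HPCs, 5 of 10 passed, where 30.6% of tested genes did, with BMI1, SUZ12 and RING1 higher (14.2%) and JARID2 and CBX2 lower (16.4%). From HEs to HPCs, averaged over both genotypes, 3 of 10 passed, where 20.4% of tested genes did: SUZ12 and RING1 rose (8.52%) and CBX2 fell (11.9%). The median log2 fold change of the 10 genes was −0.02, −0.07 and 0.02 in these 3 comparisons, beside −0.02, 0 and 0.01 over all tested genes. Where libraries of 2 stages are said below not to overlap, this is description only. With 2 libraries per group such separation is common: between genotypes it held for 13% to 19.7% of tested genes in a given direction. The share between stages is not given here.

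**Figure D1:**
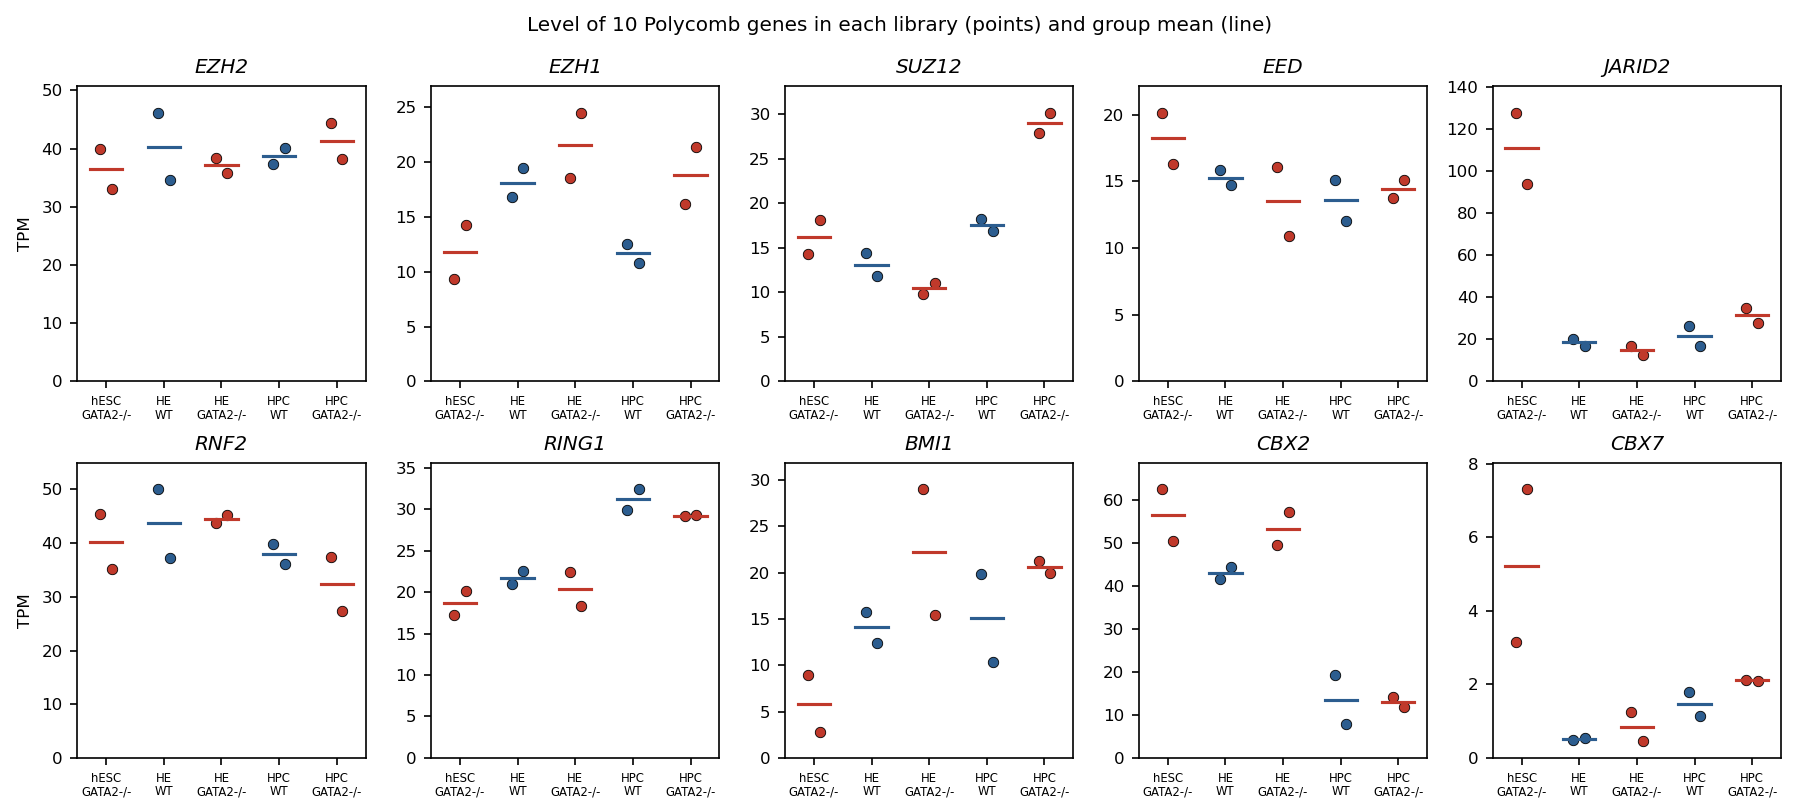
Level in TPM of each of the 10 Polycomb genes (1 panel each, vertical axis from 0) in the 5 groups on the horizontal axis, with 1 point per library, a line at the group mean, red for GATA2-/- and blue for WT. JARID2 stands at 93.93 and 127.52 TPM in hESCs and at or below 35.09 in every other library, and CBX2 drops from HEs to HPCs in both genotypes.

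Among the PRC2 enzymes, EZH2 was the more abundant in every library. Its level was 40 and 33.1 TPM in GATA2-/- hESCs, 46.13 and 34.55 in WT HEs, 38.41 and 35.84 in GATA2-/- HEs, 37.41 and 40.06 in WT HPCs, and 44.37 and 38.22 in GATA2-/- HPCs. The libraries of any 2 of the 5 groups overlapped. The log2 fold change of EZH2 (on the log2(TPM + 1) scale used throughout) was 0.05 from HEs to HPCs with a 95% interval of −0.27 to 0.37. It was 0.03 from hESCs to HEs with an interval of −0.42 to 0.48, and 0.17 from hESCs to HPCs with an interval of −0.28 to 0.62.

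EZH1, the second and less active PRC2 enzyme, is known to prevail in cells that have stopped dividing. Its level was 9.33 and 14.23 TPM in hESCs, 16.79 and 19.42 in WT HEs, 18.54 and 24.47 in GATA2-/- HEs, 12.54 and 10.8 in WT HPCs, and 16.18 and 21.37 in GATA2-/- HPCs. Every HE library lay above both hESC libraries. EZH1 rose from GATA2-/- hESCs to HEs by 0.83 (SE 0.27, limma adjusted p = 0.0494), a call that 5 of 7 other settings of the fit ended, as did leaving out hESC replicate 1 or either HE replicate (adjusted p up to 0.239). From hESCs to GATA2-/- HPCs the difference was 0.64 (SE 0.27, adjusted p = 0.111), and from WT HEs to WT HPCs it was −0.59 (SE 0.27, adjusted p = 0.249). EZH2 was 2.33 to 4.29 times as high as EZH1 in hESCs, 1.46 to 2.75 times in HEs and 1.79 to 3.71 times in HPCs. These ranges overlapped. Of 15 proliferation genes, 8 were lower and 1 higher in GATA2-/- HEs than in hESCs, where 16.1% and 13.9% of tested genes were. Their summed TPM was 2407.59 to 2695.41 in hESCs and 1467.04 to 1631.51 in HEs, and their part in the EZH1 difference was not tested.

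SUZ12, without which PRC2 does not assemble, rose at the step from HEs to HPCs. Its level was 14.29 and 18.06 TPM in hESCs, 14.44 and 11.78 in WT HEs, 9.79 and 11.09 in GATA2-/- HEs, 18.24 and 16.91 in WT HPCs, and 27.85 and 30.13 in GATA2-/- HPCs. All 4 HPC libraries lay above all 4 HE libraries. The mean rise from HEs to HPCs was 0.90 (SE 0.16, adjusted p = 0.00369), and it passed in all 7 other settings and with each of the 8 libraries left out. Within GATA2-/- cells the rise was 1.39 (SE 0.22, adjusted p = 0.00403), which did not pass with only the libraries compared (adjusted p = 0.0617). In WT cells the difference was 0.40 (SE 0.22, adjusted p = 0.345) and did not pass. Against hESCs, SUZ12 was higher in GATA2-/- HPCs by 0.81 (SE 0.22, adjusted p = 0.0222). This did not pass with only the libraries compared (adjusted p = 0.063), nor without hESC replicate 1 or either HPC replicate. With 1 library left out it was 0.65 to 0.97. In GATA2-/- HEs the difference from hESCs was −0.58 (SE 0.22, adjusted p = 0.0798).

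SUZ12 has a transcribed pseudogene copy, SUZ12P (chr17:29058904-29103420 in GRCh37, an unprocessed pseudogene), that shares sequence with it, so short reads could be split between the 2 rows and both levels are uncertain. SUZ12P read 23.99 to 28.48 TPM in hESCs, 27.65 to 31.19 in WT HEs, 16.94 to 20.38 in GATA2-/- HEs, 32.49 to 36.01 in WT HPCs and 37.33 to 47.13 in GATA2-/- HPCs. Its listed TPM was above that of SUZ12 in every library, but this order depends on how shared reads were assigned. SUZ12P has 985 exonic bases and SUZ12 has 6551. The SUZ12P row moved the same way from HEs to HPCs, by 0.67 (SE 0.14, limma adjusted p = 0.0106), and is not independent of the SUZ12 row if reads are shared. With both rows summed, an alternative chosen after seeing the data, the rise from HEs to HPCs was 0.77 (adjusted p = 0.0022), and the sum also passed the test as lower in GATA2-/- HEs than in hESCs, by −0.53 (adjusted p = 0.0451).

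EED, which binds the methyl mark that PRC2 makes, passed no test. Its level ranged from 10.92 to 20.14 TPM over the 10 libraries, with 20.14 and 16.32 in hESCs and 10.92 to 16.1 in the 8 others.

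JARID2 changed most. Its level was 127.52 and 93.93 TPM in hESCs, 20.31 and 16.68 in WT HEs, 17.02 and 12.65 in GATA2-/- HEs, 26.21 and 16.94 in WT HPCs, and 35.09 and 27.64 in GATA2-/- HPCs. In hESCs it was the highest of the 10 genes. It fell by 2.82 on the log2 scale from GATA2-/- hESCs to HEs (SE 0.28, adjusted p = 0.000119) and was lower by −1.78 in GATA2-/- HPCs than in hESCs (SE 0.28, adjusted p = 0.00151). Both passed in all 7 other settings and with each library left out. JARID2 then rose from GATA2-/- HEs to GATA2-/- HPCs by 1.04 (SE 0.28, adjusted p = 0.0415), but 3 of 7 other settings and each of the 4 fits with 1 library left out (adjusted p 0.0769 to 0.215) ended that call. In WT cells the difference was 0.19 (SE 0.28, adjusted p = 0.769), and the mean over both genotypes was 0.61 (SE 0.20, adjusted p = 0.0581). That mean did pass with a filter at 5 TPM (adjusted p = 0.0431), with quantile normalization (0.68, adjusted p = 0.0107) and without WT HPC replicate 2 (0.76, adjusted p = 0.0372). The 8 hESC markers fell together with JARID2 at the step from hESCs to HEs, all 8 past the test, where 16.1% of tested genes were lower. Their part in the fall of JARID2 was not tested.

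**Figure D2:**
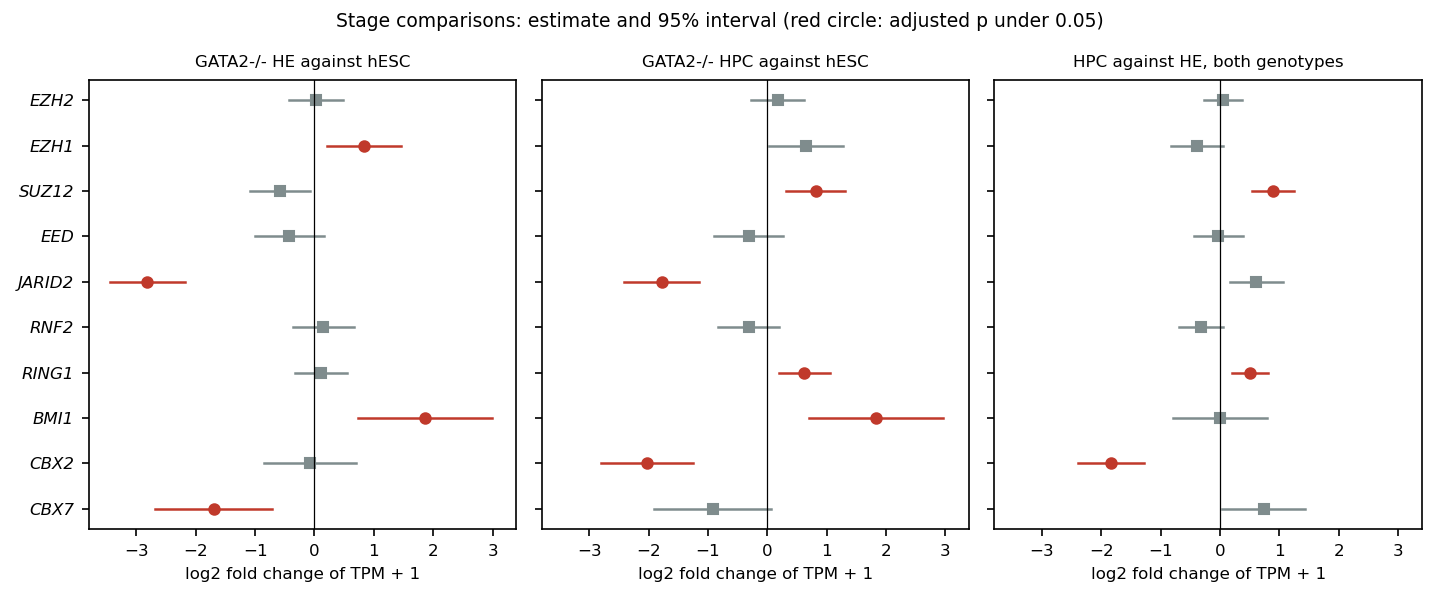
Log2 fold change of TPM + 1 (horizontal axis) of the 10 genes in 3 stage comparisons, with bars for the 95% interval, red circles for adjusted p under 0.05 and grey squares for the rest. JARID2 lies furthest below 0 against hESCs, at −2.82 and −1.78, and CBX2 lies furthest below 0 from HEs to HPCs, at −1.84.

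RING1 passed the test and RNF2 did not among the PRC1 ligases. RNF2, the more active of the pair, ranged from 27.33 to 50.01 TPM, passed no test, and had its lowest level in a GATA2-/- HPC library. Its log2 fold change from GATA2-/- HEs (43.78 and 45.18 TPM) to HPCs (37.35 and 27.33 TPM) was −0.46 (SE 0.23, adjusted p = 0.234). RING1 was at 17.25 and 20.11 TPM in hESCs, 20.96 and 22.55 in WT HEs, 22.39 and 18.29 in GATA2-/- HEs, 29.97 and 32.41 in WT HPCs, and 29.14 and 29.36 in GATA2-/- HPCs. All 4 HPC libraries stood above all 6 others. RING1 rose from HEs to HPCs by 0.51 (SE 0.14, adjusted p = 0.0292), which did not pass with limma's variance fitted without a trend (adjusted p = 0.0533). The difference was 0.50 within WT cells (adjusted p = 0.157) and 0.51 within GATA2-/- cells (adjusted p = 0.125), and neither passed alone. With 1 library left out the mean passed without GATA2-/- HE replicate 1 or WT HPC replicate 1 and did not pass without any 1 of the 6 others (adjusted p up to 0.0917). RING1 was also higher in GATA2-/- HPCs than in hESCs, by 0.62 (SE 0.19, adjusted p = 0.0367), which did not pass without the trend (adjusted p = 0.0626), with only the libraries compared (adjusted p = 0.067), or without hESC replicate 1 or either HPC replicate (adjusted p up to 0.119). RNF2 was 1.75 to 2.63 times as high as RING1 in hESCs, 1.65 to 2.47 times in HEs and 0.931 to 1.33 times in HPCs, and the HPC range lay below both others, which was not tested.

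BMI1 rose from hESCs to both later stages. Its level was 8.94 and 2.75 TPM in hESCs, 15.81 and 12.39 in WT HEs, 29.01 and 15.49 in GATA2-/- HEs, 19.86 and 10.33 in WT HPCs, and 21.3 and 19.95 in GATA2-/- HPCs. Both hESC libraries were below the 8 others, and the SE of BMI1 was the largest of the 10 genes. The rise was 1.87 in GATA2-/- HEs (SE 0.50, adjusted p = 0.0208) and 1.82 in GATA2-/- HPCs (SE 0.50, adjusted p = 0.0226). Neither rise passed with only the libraries compared (adjusted p = 0.147 and 0.12). Without hESC replicate 2, which read 2.75 TPM, these were 1.16 and 1.12 and did not pass. The first also did not pass without HE replicate 1, nor the second without either HPC replicate (adjusted p up to 0.167). BMI1 was 0.0587 to 0.177 times its paralog PCGF2 (MEL18) in hESCs, 0.333 to 0.688 times in HEs and 0.586 to 1.23 times in HPCs. COMMD3, the gene just upstream, has read-through transcripts that run into BMI1, and its level was 5.71 and 6.3 TPM in hESCs and 33.72 to 70.16 in the 8 others. Its part in the BMI1 values was not tested.

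Among the CBX readers, CBX2 fell from HEs to HPCs. It read 62.48 and 50.37 TPM in hESCs, 41.63 and 44.47 in WT HEs, 49.45 and 57.27 in GATA2-/- HEs, 19.18 and 7.83 in WT HPCs, and 14.22 and 11.94 in GATA2-/- HPCs. All 4 HPC libraries were below all 6 others. The fall from HEs to HPCs was −1.84 (SE 0.24, adjusted p = 0.000872), past the threshold in all 7 other settings and with each of the 8 libraries left out. At the same step 11 of 11 endothelial markers were lower, and of 9 mesenchymal and stromal markers 4 were lower and 1 higher. Of all tested genes 11.9% were lower and 8.52% higher there. The mesenchymal sum was 540.83 to 829.12 TPM in HEs and 131.71 to 286.39 in HPCs, and the part of these markers in the changes of CBX2, SUZ12 and RING1 was not tested. In WT cells the difference was −1.72 (SE 0.34, adjusted p = 0.0148), and CBX2 was there the 1 member of 10 that passed, where 9.91% of tested genes did and 6.59% were lower. CBX2 did not pass there with only the libraries compared (adjusted p = 0.209), nor without WT HE replicate 1 or replicate 2. In GATA2-/- cells it was −1.95 (SE 0.34, adjusted p = 0.0068), and 3 of 10 members passed, where 12.7% of tested genes did, 2 of them higher (5.5%) and 1 lower (7.24%). CBX2 did not pass there with only the libraries compared (adjusted p = 0.0576), nor without GATA2-/- HE replicate 2 or HPC replicate 2. CBX2 was −2.02 lower in GATA2-/- HPCs than in hESCs (SE 0.34, adjusted p = 0.00235), which passed in all 7 other settings and with each library left out.

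CBX7, a reader better known from adult blood stem cells and mouse ES cells, had the lowest level of the 10 genes in 9 of the 10 libraries, the exception being hESC replicate 2, where BMI1 was lower. It read 3.16 and 7.3 TPM in hESCs, 0.49 and 0.54 in WT HEs, 1.24 and 0.46 in GATA2-/- HEs, 1.8 and 1.13 in WT HPCs, and 2.13 and 2.1 in GATA2-/- HPCs. Levels near 1 TPM are imprecise, and the added 1 before the logarithm understates their change. CBX7 was lower by −1.70 in GATA2-/- HEs than in hESCs (SE 0.43, adjusted p = 0.0174), which did not pass without hESC replicate 2 or HE replicate 2 (adjusted p up to 0.107). The fall in GATA2-/- HEs also did not pass with only the libraries compared (adjusted p = 0.108). The difference between GATA2-/- HPCs and hESCs was −0.92 (SE 0.43, adjusted p = 0.149) and that between HPCs and HEs was 0.74 (SE 0.31, adjusted p = 0.133). CBX2 was 6.9 to 19.8 times as high as CBX7 in hESCs, 39.9 to 124 times in HEs and 5.69 to 10.7 times in HPCs, so the HE range lay apart from both others.

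The other CBX and PHC genes showed the same kind of exchange within a family. The 5 canonical CBX genes summed to 65.95 to 76.49 TPM in hESCs, 56.19 to 67.05 in HEs and 25.85 to 34.71 in HPCs. CBX2 made up 76.4% to 81.7% of that sum in hESCs, 72.4% to 85.4% in HEs and 30.3% to 55.8% in HPCs. Of the 9 further canonical PRC1 genes, 3 were higher and 2 lower in GATA2-/- HEs than in hESCs, where 13.9% and 16.1% of tested genes were. In GATA2-/- HPCs 4 were higher and 2 lower than in hESCs, where 14.2% and 16.4% of tested genes were. PHC1, a polyhomeotic protein abundant in pluripotent cells, fell from 373.34 and 462.21 TPM in hESCs to 28.09 to 35.4 in HEs of both genotypes (−3.65 in GATA2-/- HEs, SE 0.18, adjusted p = 3.72e-06). PHC2, its paralog, rose from 4.17 and 4.75 TPM to 152.76 to 209.17 in HEs (5.13, SE 0.24, adjusted p = 2.85e-06) and was lower in HPCs, at 44.73 to 72.63 TPM (−1.60 against HEs, SE 0.17, adjusted p = 0.000282). PHC1 held 97.6% to 98.2% of the summed PHC level in hESCs and 12.5% to 17.1% in HEs. CBX8 was higher in GATA2-/- HEs than in hESCs (2.02, adjusted p = 0.0107) and CBX6 lower (−1.74, adjusted p = 0.00307), while CBX6 rose again from HEs to HPCs (1.10, adjusted p = 0.00769).

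**Figure D3:**
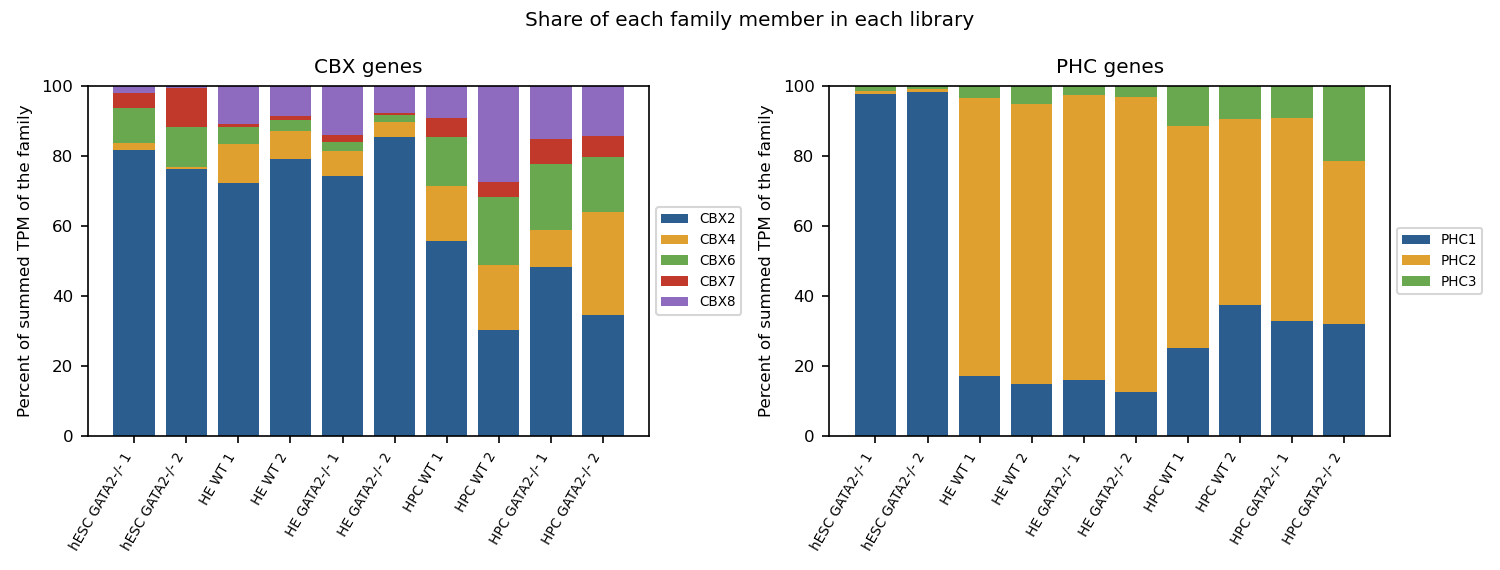
Share in percent (vertical axis, 0 to 100) of each of 5 CBX genes (left) and 3 PHC genes (right) in the summed TPM of its family, with 1 bar per library. CBX2 falls to 30.3% to 55.8% of the CBX sum in HPCs, and PHC1 and PHC2 change places between hESCs and HEs.

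Of 8 tested further PRC2 genes, 1 was higher (13.9% of tested genes) and 1 lower (16.1%) in GATA2-/- HEs than in hESCs. In GATA2-/- HPCs 1 was higher than in hESCs (14.2%), and 1 was lower in HPCs than in HEs (11.9%). PHF19, an accessory subunit that binds methylated H3, rose by 1.68 (SE 0.24, adjusted p = 0.000908) and then fell from HEs to HPCs by 0.80 (adjusted p = 0.00997). AEBP2, a cofactor of PRC2, fell by 1.00 in GATA2-/- HEs (adjusted p = 0.0276). Of 14 variant PRC1 genes, 4 were higher and 2 lower in GATA2-/- HEs than in hESCs, where 13.9% and 16.1% of tested genes were. YAF2 rose from 0.93 and 0.61 TPM to 11.7 and 11.52 (2.84, adjusted p = 9.2e-05) and BCORL1 from 0.72 and 1.37 TPM to 18.21 and 14.74 (3.11, adjusted p = 0.000514). KDM2B, which brings variant PRC1 to CpG islands, fell by 0.97 (adjusted p = 0.0114). AUTS2, of the PCGF3 and PCGF5 complexes, fell from HEs to HPCs by 1.79 (adjusted p = 0.00151) while PCGF5 rose by 1.02 (adjusted p = 0.00714).

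Of 8 PR-DUB genes, whose complex removes the H2A mark, 4 were higher and none lower in GATA2-/- HEs than in hESCs. Of all tested genes 13.9% were higher and 16.1% lower there. ASXL1 led these 4 at 2.62 (SE 0.17, adjusted p = 1.32e-05). It read 98.5 and 94.16 TPM in GATA2-/- HEs and 60.93 and 58.41 in WT HEs. In HPCs it read 93.74 and 81 TPM in GATA2-/- cells and 53.38 and 43.76 in WT cells. None of the 8 genes passed the test between genotypes in either stage. Of 7 genes that oppose Polycomb, 1 was higher and 1 lower from GATA2-/- hESCs to HEs, beside the same 13.9% and 16.1% of tested genes. KDM6B, a demethylase of H3K27me3, rose by 3.81 (adjusted p = 7.03e-05), from 0.84 and 1.75 TPM to 37.85 and 24.8, while its paralog KDM6A fell by 1.40 (adjusted p = 0.00264). KMT2A (MLL), a methyltransferase of active promoters, rose from GATA2-/- HEs to GATA2-/- HPCs by 1.40 (adjusted p = 0.0081). In WT cells it read 15.88 and 14.03 TPM in HEs and 19.31 and 16.38 in HPCs and did not pass.

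None of the 10 genes passed the test between genotypes. In HEs, 0 of 10 passed, where 0.0186% of tested genes did, and 0 of 10 reached an unadjusted p under 0.05, where 4.85% did. SUZ12 was lower in both GATA2-/- HE libraries than in both WT libraries (−0.30, SE 0.22, adjusted p = 1) and CBX2 was higher in both, while the libraries of the other 8 genes overlapped. Such separation held for 16.5% of tested genes in the lower and 13.8% in the higher direction. BMI1 had the largest difference, 0.57 (SE 0.50), with an interval of −0.56 to 1.70. The 12 blood markers summed to 301.71 and 398.93 TPM in WT HEs and 124.83 and 219.36 in GATA2-/- HEs, and 8 of the 12 were lower in both GATA2-/- libraries with 0 past the test. Their part in the SUZ12 and CBX2 values was not tested.

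In HPCs, 0 of 10 passed, where 0.0603% of tested genes did, and 2 of 10, SUZ12 and EZH1, reached an unadjusted p under 0.05, where 8.94% did. SUZ12 was higher in GATA2-/- HPCs by 0.69 (SE 0.22, interval 0.19 to 1.19, adjusted p = 0.382) and EZH1 by 0.63 (SE 0.27, interval 0.01 to 1.26, adjusted p = 0.549). JARID2 differed by 0.54 (SE 0.28, adjusted p = 0.621) and BMI1 by 0.49 (SE 0.50, adjusted p = 0.791). These 4 genes and CBX7 were higher in both GATA2-/- HPC libraries than in both WT ones, 5 of 10 where 19.7% of tested genes were. RING1 was lower in both, 1 of 10 where 13% of tested genes were. Averaged over HEs and HPCs, 0 of 10 passed, where 0.0232% of tested genes did, and the members' mean differences ran from −0.10 (RNF2) to 0.53 (BMI1). That of EZH2 was −0.01 with an interval of −0.33 to 0.31, and that of EZH1 was 0.43 with an interval of −0.01 to 0.87.

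**Figure D4:**
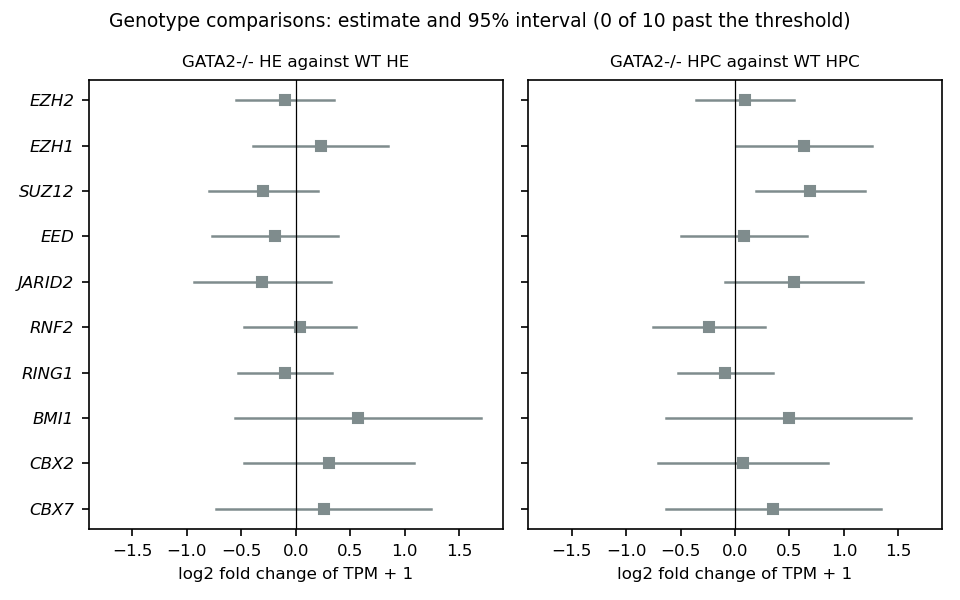
Log2 fold change of TPM + 1 (horizontal axis) of the 10 genes between GATA2-/- and WT in HEs (left) and HPCs (right), with bars for the 95% interval. The estimates run from −0.31 to 0.57 for HEs and from −0.24 to 0.69 for HPCs, and none passes the threshold.

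Whether the genotype difference itself changed with stage was tested as the difference in HPCs minus the difference in HEs. It passed for 0 of 10 members and for 0% of all tested genes with limma, while an unadjusted p under 0.05 was reached by 1 of 10 members and by 1281 (5.95%) of all genes. For SUZ12 it was 0.99 (SE 0.31, interval 0.28 to 1.70, adjusted p = 0.69) and for JARID2 0.85 (SE 0.39, interval −0.04 to 1.74, adjusted p = 0.863). SUZ12 was lower in both GATA2-/- libraries in HEs and higher in both in HPCs.

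The annotated starts of 9 of the 10 genes could be looked up in RefSeq, with 12 windows in all because BMI1, EZH2 and JARID2 have 2 each. CBX2 was not matched. The upstream 250 bases of each window, from RefSeq for GRCh38.p14, matched GRCh37 exactly once, and GRCh37 positions are given. They held 11 to 54 CG pairs, with a median of 34, beside a median of 11 over 35116 windows of the same length. The windows of SUZ12 and RING1 are shown because these 2 genes rose from HEs to HPCs, and the first of JARID2 because it fell furthest from hESCs. Capitals mark a match to an E2F motif in SUZ12 and to a RUNX motif in JARID2, and RING1 held no match to any of the 5 motifs searched.

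SUZ12, chr17:30263776-30264025, plus strand: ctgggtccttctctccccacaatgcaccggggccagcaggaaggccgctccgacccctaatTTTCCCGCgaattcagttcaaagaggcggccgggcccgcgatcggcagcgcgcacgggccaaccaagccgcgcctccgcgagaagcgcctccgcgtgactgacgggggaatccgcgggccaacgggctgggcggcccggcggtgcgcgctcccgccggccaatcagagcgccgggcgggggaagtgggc
RING1, chr6:33176027-33176276, plus strand: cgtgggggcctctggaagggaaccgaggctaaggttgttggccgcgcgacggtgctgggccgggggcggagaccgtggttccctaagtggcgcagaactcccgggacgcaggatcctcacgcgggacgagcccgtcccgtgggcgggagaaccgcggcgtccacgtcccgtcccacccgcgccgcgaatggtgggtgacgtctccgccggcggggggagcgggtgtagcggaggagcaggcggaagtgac
JARID2, chr6:15246050-15246299, plus strand: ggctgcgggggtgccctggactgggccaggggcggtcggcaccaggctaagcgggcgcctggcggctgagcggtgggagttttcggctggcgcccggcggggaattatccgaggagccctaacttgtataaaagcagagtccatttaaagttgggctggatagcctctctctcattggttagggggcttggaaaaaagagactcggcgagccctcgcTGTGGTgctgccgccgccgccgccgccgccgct

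Each motif was searched on both strands. An E2F motif (TTTCCCGC, TTTGGCGC, TTTCGCGC or TTTGCCGC) was in 2 of the 12 windows and in 2.79% of all windows: SUZ12 holds it 182 to 189 bases upstream of its start, and EZH1 holds it on the minus strand 108 to 115 bases upstream. A RUNX motif (TGTGGT) was in 1 window, JARID2, 28 to 33 bases upstream, and in 10.98% of all. A YY1 motif (GCCATNTT) was in 1 window, BMI1, 13 to 20 bases upstream, and in 3.86% of all. A GATA motif (AGATAA or TGATAA) and an ETS motif (CCGGAAG) were in 0 of the 12 windows and in 14.56% and 8.52% of all. The shares over all windows were not matched to the 12 for CG pairs (median 34 against 11), so no lack or excess of a motif is read from them.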

How the data were processed

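RNA-Seq libraries of HEs, HPCs and GATA2-/- hESCs were made by the authors with a TruSeq kit and sequenced as short single-end reads on a MiSeq. Adapters were trimmed with Trimmomatic and reads mapped with Bowtie to hg 19. The submitters' processing notes name Bowtie and RSEM, and list the builds hg 19 and mm 10, the second with no role given. How reads shared by several genes were assigned is not given in the sources used here. The deposited values are TPM per gene from the authors, with 2 decimals, so depth is unknown and precision rests on 2 libraries per group. The authors' Cuffdiff test needs reads and was not repeated.

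From these, log2(TPM + 1) was fitted with limma 3.58.1 in R 4.3.3 (trend, 5 groups sharing 1 variance) over 21543 genes that reached 1 TPM in 2 or more libraries. The threshold was a Benjamini-Hochberg adjusted p of 0.05 over all genes, and intervals are 95%. The procedure was tested on simulated data. Levels, ratios and motifs were computed in Python 3.11.15.

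The members, gene lists and tests were chosen with earlier results of these data known. Named genes are all members, rows that could share their reads, and up to 4 genes per list and comparison with the largest change past the threshold. Alternatives were a pseudocount of 0.1, no filter, a filter at 5 TPM, only the libraries compared, quantile normalization, no trend, a replicate block and leaving out each library. Summing SUZ12 with SUZ12P was chosen after seeing the data. WT hESCs were not analysed here.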

Additional observations from a re-analysis of the deposited data

Results flagged for a closer look

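For SUZ12, both GATA2-/- libraries lay below both WT libraries in HEs and above both in HPCs. Neither difference passed alone (−0.30 in HEs, adjusted p = 1, and 0.69 in HPCs, adjusted p = 0.382, by limma). The difference of the 2 effects was 0.99 on the log2 scale (SE 0.31, limma adjusted p = 0.69). It did not pass over all genes, and 898 (4.17%) of tested genes separated in opposite directions in the same way. With SUZ12 and SUZ12P summed, the difference was 0.98 (adjusted p = 0.642), from −0.53 in HEs and 0.45 in HPCs. The pseudogene row alone, which could share reads with SUZ12, gave 0.92 (adjusted p = 0.688).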

How the results depend on the processing

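The loss of GATA2 and its change with stage gave 0 members past the threshold in the main analysis and in every alternative. With only the libraries compared, fewer libraries entered the fit. The number of members past the threshold was then 1 in place of 4 from GATA2-/- hESCs to HEs and 2 in place of 5 to HPCs. It was 0 in place of 3 from GATA2-/- HEs to HPCs and 0 in place of 1 in WT cells. Over all tested genes these 4 counts were 5055 in place of 6462, 4386 in place of 6586, 0 in place of 2745 and 0 in place of 2134. Leaving out 1 library at a time left 1 library in a group. Fewer of all tested genes then passed in these 4 and in the mean of HPCs against HEs, so member counts are not compared for those fits. Of the members' log2 fold changes given in the report, which do not cover every member in every comparison, 5 turned sign when a library was left out: EZH2 from hESCs to HEs (−0.11 to 0.16), from HEs to HPCs (−0.0501 to 0.15) and between genotypes (−0.11 to 0.0936), RNF2 between genotypes (−0.21 to 0.0098), and JARID2 from WT HEs to WT HPCs (−0.11 to 0.49). With 1 added to each TPM the mean CBX2 to CBX7 ratio was 30.1 in place of 82.9 in HEs and 5.10 in place of 7.49 in HPCs. Each member has 1 row, so summing rows of a symbol changes nothing.

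Over the 10 pairs of groups the correlation across genes of replicate differences was −0.0141 to 0.123, above 0.1 in 1 pair, so the samples were taken to share only a number. JARID2 and BMI1 were nonetheless higher in replicate 1 than in replicate 2 in all 5 groups. The replicate 2 columns of HEs and HPCs carry a suffix that replicate 1 lacks, whose meaning is not given. With a replicate block, 4 members passed from HEs to HPCs in place of 3, JARID2 being the one added (0.61, SE 0.12, adjusted p = 0.00858), and the other 8 member counts were the same. Over all tested genes 4688 passed at that step in place of 4395.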
